A study of Mus musculus with 4 samples.

Results

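Cytosolic ribosomal proteins are the protein subunits of the ribosomes that translate nuclear-encoded mRNAs in the cytoplasm. Their genes were taken from the count table by symbol, as the *Rpl*, *Rps*, *Rplp* and *Rpsa* names of the large and small subunit. Pseudogenes with a -ps symbol and the *Rps6k* kinases were left out. A minimum of 1000 counts in each of the 4 libraries was then applied, so the genes were selected on their counts in these libraries. Of 84 symbols that matched among 48587 rows of the table, 78 passed, with 31 of the 40S (small) subunit and 47 of the 60S (large) subunit, the stalk genes *Rplp0*, *Rplp1* and *Rplp2* included. The comparison of shMettl14 with shCTR within each letter belongs to the definition of this gene group, so the within-letter values are given as a description without a test.

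The libraries were poly-A mRNA-seq of primary vascular smooth muscle cells (VSMCs) grown out of the descending aorta of C57BL/6J mice aged 8 to 12 weeks and used at passage 5 to 7. All cells had received a lentiviral vector, and transduction was checked by GFP. In the shCTR group the vector was a pLKO.1 plasmid with GFP and carried a hairpin against a plant microRNA. In the shMettl14 group, whose backbone the paper does not name, it carried 1 hairpin against *Mettl14*. That gene encodes a subunit of the nuclear complex that writes N6-methyladenosine into mRNA. RNA was collected 48 h after a transduction of 24 h. Each group had 2 libraries, lettered A and B, and no source says that the libraries came from separate animals or cultures, so p-values measure only the spread between these libraries. A single hairpin represented the knockdown, so its effect and any effect of the hairpin sequence cannot be told apart.

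A ribosome is built from ribosomal RNA and, in most cases, a single copy of each ribosomal protein, and the genes of these proteins are among the most strongly transcribed genes of a growing cell. Their mRNAs belong to the TOP class (terminal oligopyrimidine), which starts with a C followed by a run of pyrimidines. This tract couples their translation to the kinase mTOR through the RNA-binding protein Larp1. In VSMCs, the shift from a contractile to a proliferating, matrix-producing state goes with increased protein synthesis.

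Of the RefSeq start sites below, those of *Rps27* and *Rps10* have a C at the annotated start that is followed by pyrimidines. In *Rplp0*, *Rpl22l1*, *Rps19*, *Rps12* and *Rps26* the marked run begins after the annotated start, so it is not a tract at that start. Each line gives the 30 bases from 10 before to 20 after the annotated start (build GRCm38.p6, 5′ to 3′ on the strand of the gene), and capitals mark the longest run of at least 6 C or T bases. The 3 most abundant genes of the group come first, then 3 genes with the highest and 3 with the lowest fold changes among those with a printable window. *Rpl4* has its run before the annotated start, *Rpsa* has none, and *Rps19* is shown at the one of its 3 annotated starts whose window holds a run.
Rplp0 (chr5:115559457-115559486, + strand): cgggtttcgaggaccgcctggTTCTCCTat
Rpl4 (chr9:64173377-64173406, + strand): TTTCCTgtgggagcagccgggtagagagga
Rpsa (chr9:120127756-120127785, + strand): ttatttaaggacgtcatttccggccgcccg
Rpl22l1 (chr3:28805498-28805527, + strand): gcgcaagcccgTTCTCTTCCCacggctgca
Rps27 (chr3:90213629-90213658, - strand): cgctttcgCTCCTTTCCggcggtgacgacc
Rps19 (chr7:24884903-24884932, + strand): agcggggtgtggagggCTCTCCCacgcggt
Rps12 (chr10:23787190-23787219, - strand): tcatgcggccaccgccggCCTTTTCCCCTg
Rps26 (chr10:128626487-128626516, - strand): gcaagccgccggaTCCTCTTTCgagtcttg
Rps10 (chr17:27635225-27635254, - strand): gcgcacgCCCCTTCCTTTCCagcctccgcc

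A start-site sequence was matched for 58 of the 78 genes. A run of at least 6 C or T bases on the strand of the gene lay within the window in 37 of them (63.8%). The same run was found for 32.1% of 27025 genes with a start-site sequence and for 32.3% of 6769 such genes that had at least 1000 counts in each library. A stricter form, C at the annotated start followed by 4 C or T bases, was met by 13 of the 58 genes (22.4%) and by 3.01% of the 27025 genes. The 37 genes with a run had a median log2 fold change of -0.10 and the 21 without one had -0.12. *Rpl22l1* and *Rps12*, the genes with the highest and the lowest fold change, both hold a run.

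The libraries held between 114343653 and 124815868 counts, and a count of 0 allowed at most 0.0278 CPM, the value of 3 counts. CPM here are counts per 1000000 counts of the library after its total was scaled by the TMM factor. *Mettl14* had 2050 and 2154 counts in shCTR A and B and 546 and 568 in shMettl14 A and B. The 8 markers of smooth muscle summed to 8601 and 8761 CPM in shCTR A and B and to 6402 and 7702 in shMettl14 A and B, so that both shMettl14 libraries were below both shCTR libraries. *Acta2*, the smooth muscle actin, was lower in both letters (log2 fold change -0.58, SE 0.21, unadjusted p = 0.038 and adjusted p = 1.0 in edgeR). *Tagln* and *Cald1* were the other large contributors to the sums. The log2 ratio of shMettl14 to shCTR was -0.53 in letter A and -0.12 in letter B for *Tagln*. It was 0.12 and -0.05 for *Cald1* and -0.40 and 0.19 for *Lmod1*, so not every marker was lower in both letters. The 6 endothelial markers summed to between 1183 and 1814 CPM, with the highest sum in shCTR B, and the 6 leukocyte markers to between 4.07 and 5.15 CPM. The 4 fibroblast markers lay between 206 and 291 CPM and the 4 adipocyte markers between 12.1 and 13.6 CPM, with *Plin1* at 0 to 3 counts. The part of the smooth muscle state and of these other cell types in the values below was not tested.

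The 78 genes took 4.46% of all counts in shCTR A, 3.73% in shCTR B, 4.26% in shMettl14 A and 3.73% in shMettl14 B. Both libraries of letter A were thus above both of letter B, and the 2 groups overlapped. The 40S genes took 1.75, 1.53, 1.70 and 1.43% in the same order, and the 60S genes 2.71, 2.20, 2.55 and 2.30%. A few very abundant mRNAs set part of these shares, since fibronectin (*Fn1*) alone took 2.72% of counts in shCTR A and 6.43% in shCTR B. Without the 10 most abundant genes of each library, chosen library by library, the ribosomal protein genes took 4.87, 4.29, 4.67 and 4.16%. In whole cultures, fewer cells of a type and less RNA per cell cannot be told apart, and a share of poly-A counts does not measure the number of ribosomes.

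On the CPM scale, which does not correct for transcript length, the mean level over the 4 libraries ran from 23.3 CPM for *Rpl22l1* to 1548 CPM for *Rplp0*. *Rplp0*, the stalk protein that anchors the docking site of the translation factors, was the most abundant gene in 3 libraries, with 2047, 1272, 1603 and 1271 CPM in shCTR A, shCTR B, shMettl14 A and shMettl14 B. In shCTR B the most abundant was *Rps26*, a 40S protein at the mRNA exit channel. The median of the 78 genes was 560 CPM in shCTR A, 428 in shCTR B, 531 in shMettl14 A and 454 in shMettl14 B. Per kilobase of transcript, *Rps26*, *Rps12* and *Rplp1* had the highest mean levels (1634, 1518 and 1277 CPM per kilobase), and *Rpl7l1*, *Rpl13a* and *Rpl22l1* the lowest (32.2, 41.0 and 42.2).

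Just inside the count minimum lay *Rpl22l1*, with 1289 counts in its lowest library, followed by *Rpl13a* with 3552 and *Rpl7l1* with 7298. Just outside lay *Rps4l*, which the annotation lists as a transcribed processed pseudogene, with 1946, 594, 1211 and 538 counts. *Rpl6l*, which the annotation lists as a processed pseudogene, had a lowest count of 91, and *Rpl24* of 77. *Rpl3l* had 5 to 10 counts and *Rpl10l* had 0 in all 4 libraries. *Rpl39l* had 84 and 136 counts in the A libraries and 0 in both B libraries. *Rpl3l* and *Rpl10l* are known from striated muscle and testis. *Rpl24* encodes a constitutive 60S protein, and 47.0% of its exon bases overlap another gene on the same strand. The corresponding overlap was 35.4% for *Rpl13a*, and the part of overlapping genes in these low values was not tested.

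**Figure D1:**
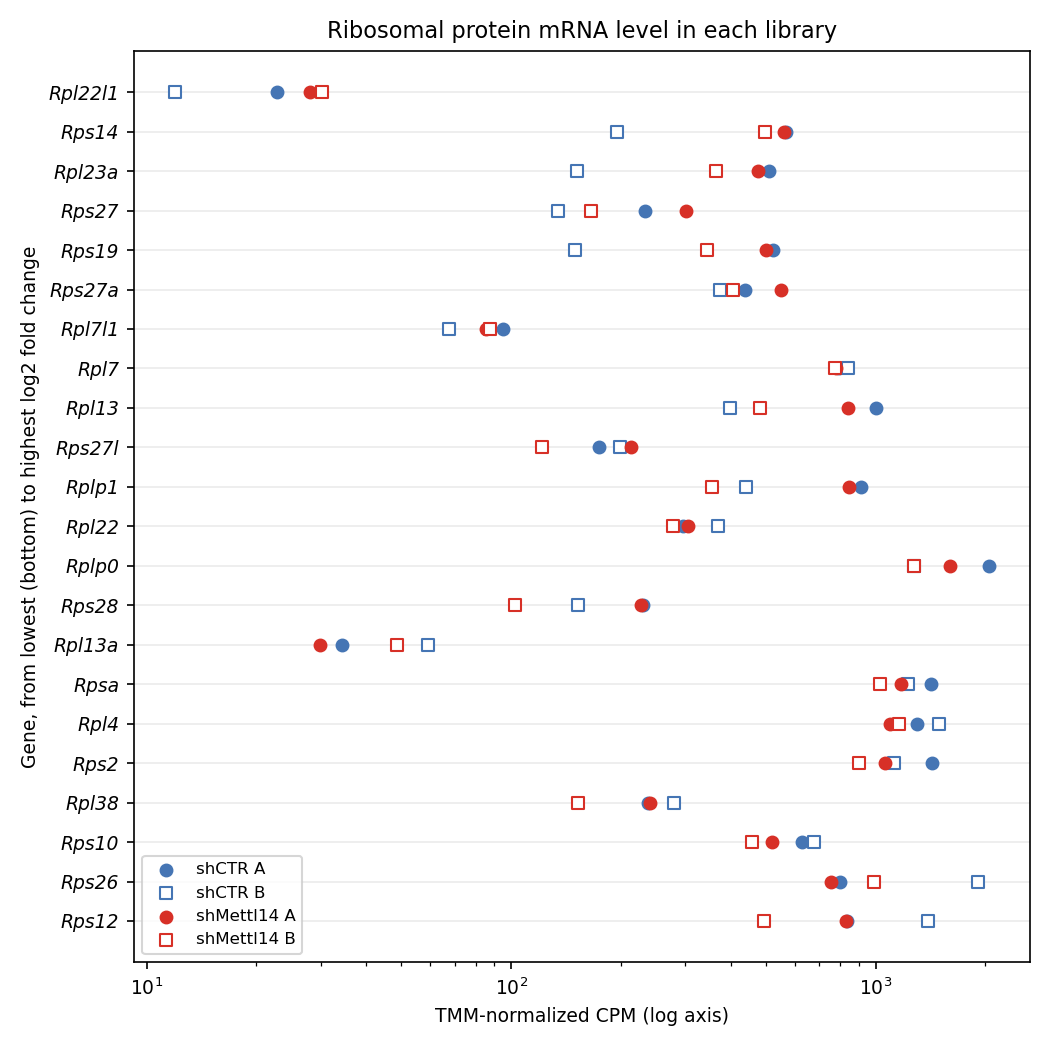
CPM (counts per 1000000 TMM-scaled counts, log axis) of 22 genes named by rule, 1 row per gene ordered by log2 fold change, with circles for letter A, squares for letter B, blue for shCTR and red for shMettl14. For *Rps14*, *Rpl23a* and *Rps19* the shCTR B square stands far to the left of the other 3 libraries, and for *Rps26* far to the right. For *Rps12* shCTR B is the highest and shMettl14 B the lowest library.

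The first comparison asked whether the mRNA levels of these genes differed between shMettl14 and shCTR over both letters. With edgeR (quasi-likelihood, p-values adjusted by Benjamini-Hochberg across all 18916 genes), 0 of the 78 genes had an adjusted p under 0.05, against 0.0% of all genes tested. *Mettl14*, the target of the hairpin, did not reach that threshold either (log2 fold change -2.08, SE 0.25, unadjusted p = 0.00039 in edgeR). A count of 0 in this fit therefore does not show that the levels were unchanged. An unadjusted p under 0.05 was reached by 1 of the 78 (1.28%), against 1.67% of all genes tested, and DESeq2 gave 0 of the 78, against 1.52% of all genes it tested. The median log2 fold change of the 78 was -0.10, with quartiles of -0.23 and 0.01, and 55 genes had negative and 23 positive values. The medians of the 40S and of the 60S genes were -0.10 and -0.11. Among all 8670 genes with at least 1000 counts in each library the median was -0.04, with 5016 negative and 3654 positive values. All 18916 genes tested had 9230 negative and 9686 positive values.

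The sign of this small median rested on the scaling and on single libraries. Scaling by library totals alone, without TMM factors, moved the median of all genes tested from 0.01 to 0.12 and that of the ribosomal protein genes from -0.10 to 0.00, with 40 positive and 38 negative values instead of 23 and 55. Relative to the median of all genes the ribosomal protein genes lay at -0.11 with TMM and at -0.12 with totals. Without shCTR A their median was 0.07 (42 positive and 36 negative), and without shMettl14 B it was -0.02 (37 and 41). Without shCTR B it was -0.23 (12 and 66), and without shMettl14 A it was also -0.23 (20 and 58). An exact permutation test of 2 against 2 libraries cannot give a two-sided p below 0.333.

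The second comparison was that within each letter, where a ratio is the log2 CPM of shMettl14 minus that of shCTR. In letter A the ratios of the 78 genes had a median of -0.09 and an SD of 0.23, and no gene lay beyond 0.54 in either direction. In letter B the median was -0.12 and the SD 0.52. Among the 8670 genes with at least 1000 counts in each library the SDs were closer, at 0.29 and 0.34. In letter A, 1 ribosomal protein gene lay beyond 0.5 (*Rpl28*), where the background was 7.38%, and 0 lay beyond 1, with a background of 0.346%. In letter B, 26 of the 78 lay beyond 0.5, with a background of 12.7%, and 5 beyond 1, with a background of 1.15%. Those 5 were *Rps12* with a negative ratio and *Rps14*, *Rpl22l1*, *Rpl23a* and *Rps19* with positive ones.

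The letters did not give the genes the same signs. The ratio was negative in both letters for 29 of the 78 genes (37.2%), with a background of 36.1% among the 8670 genes. It was positive in both for 6 (7.69%), with a background of 24.0%. The signs were opposite for the remaining 43 (55.1%), and for 3464 of the 8670 genes. The 43 were made up of 26 genes lower in A and higher in B and 17 the other way round. Across the 78 genes Pearson's r of the ratios was -0.17 (Spearman's rho -0.26), and across the 8670 genes it was 0.32. These correlations are over genes that share 4 libraries and their depth, and genes are not independent replicates.

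**Figure D2:**
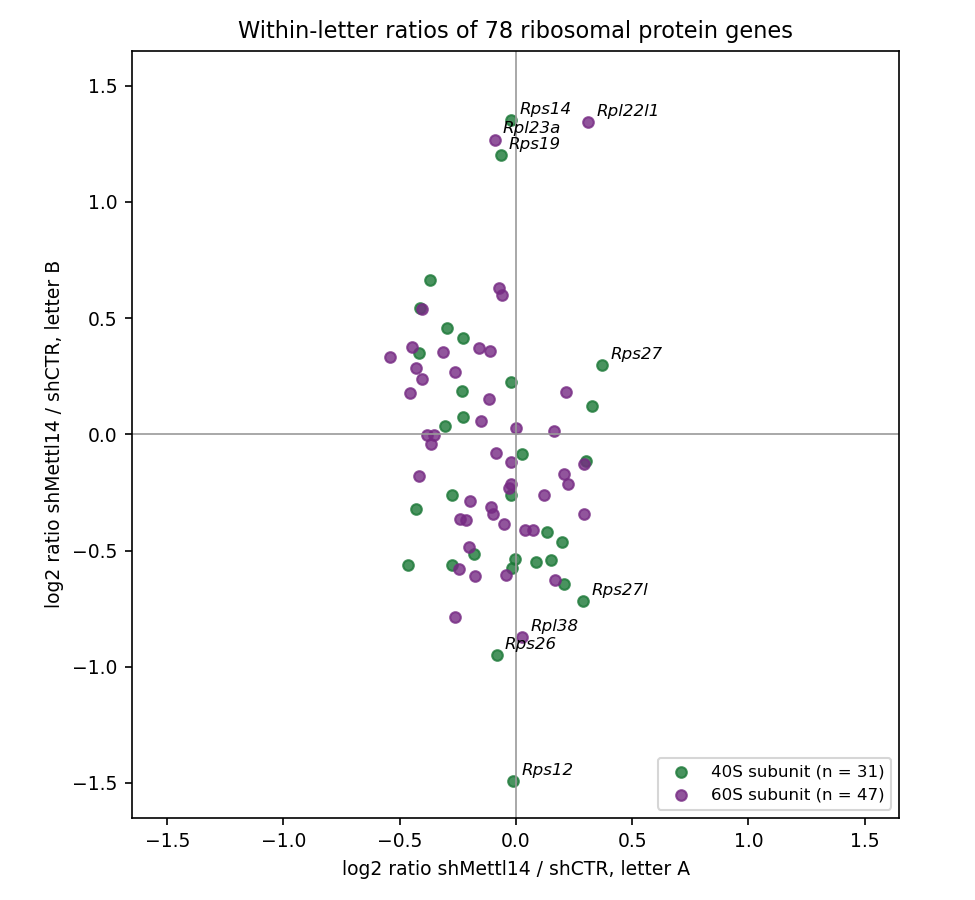
Log2 ratio of shMettl14 to shCTR in letter A (x axis) and letter B (y axis) for the 78 ribosomal protein genes, 1 point per gene, 40S in green and 60S in purple, on axes of equal scale. The points stay within 0.54 of 0 along letter A and reach from -1.49 (*Rps12*) to 1.35 (*Rps14*) along letter B, and *Rps27* and *Rpl22l1* are among the 6 genes that are positive in both.

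The groups did not overlap for 24 genes. Both shMettl14 libraries were below both shCTR libraries for 21 of the 78, with a background of 18.4%, and above them for 3 (*Rpl11*, *Rpl34* and *Rpl22l1*), with a background of 9.98%. *Rpl11* with *Rpl5* and the 5S ribosomal RNA binds the p53 ligase Mdm2. *Rpl11* had 604.2 and 594.9 CPM in shCTR A and B against 605.1 and 605.6 in shMettl14 A and B, so its groups were barely apart. *Rpl5* had 604, 572, 570 and 541 CPM in the same order. The log2 fold change was 0.01 for *Rpl11* and -0.08 for *Rpl5*.

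Libraries of letter B stood apart from the others more often than those of letter A. A library was counted as apart for a gene when its distance to the nearest of the other 3 exceeded the range of those 3. That held for shCTR B in 20 of the 78 genes (25.6%, background 17.1%), 11 on the low side and 9 on the high side. It held for shMettl14 B in 15 genes (19.2%, background 8.45%), 14 of them on the low side. The corresponding numbers were 5 for shCTR A (6.41%, background 14.0%) and 3 for shMettl14 A (3.85%, background 5.12%). The SD of the log2 difference over the 78 genes was 0.52 to 0.57 for the 3 pairs that include shCTR B. It was 0.40 between shMettl14 A and shMettl14 B, 0.35 between shCTR A and shMettl14 B and 0.23 between shCTR A and shMettl14 A. Libraries of 1 group thus differed in these genes by more than the 2 libraries of letter A did, and the same held over the 8670 genes. There the SD was 0.58 between the shCTR libraries, 0.42 between the shMettl14 libraries and 0.29 between the letter A libraries. Between the letter B libraries it was 0.52 over the 78 genes and 0.34 over the 8670. Between shCTR A and shMettl14 B it was 0.35 over the 78 genes and 0.53 over the 8670.

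**Figure D3:**
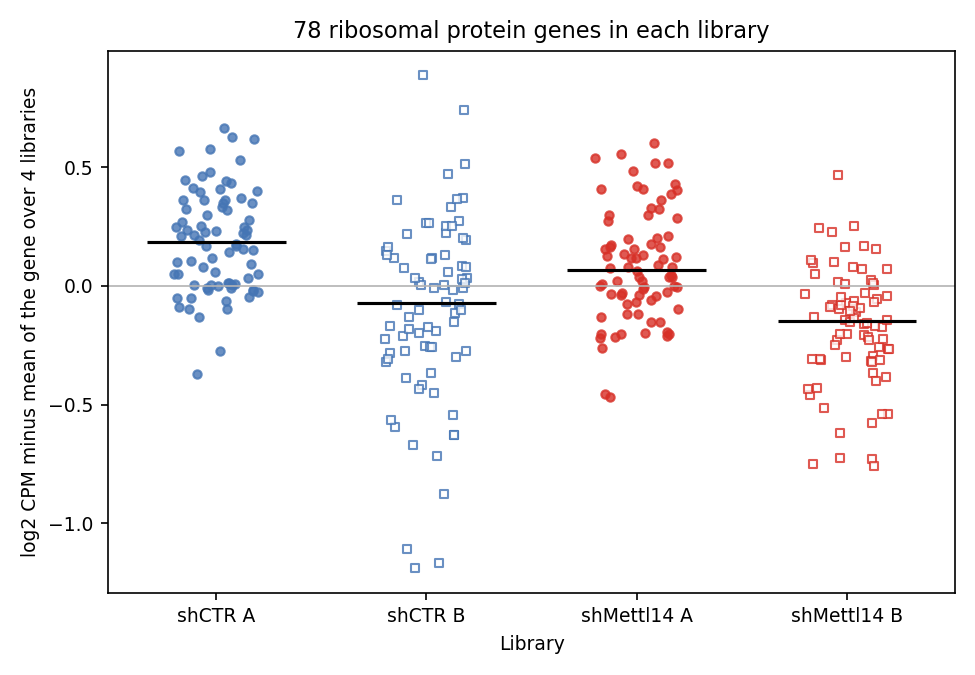
Log2 CPM of each of the 78 ribosomal protein genes minus the mean of that gene over the 4 libraries (y axis), 1 point per gene in each library, with black lines for the median of the library. The shCTR B column has the widest spread, with 3 genes more than 1 below their mean, and shMettl14 B has the lowest median.

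Among the 40S genes, *Rps12* had the lowest fold change of the group. Its level was 837 CPM in shCTR A, 1388 in shCTR B, 829 in shMettl14 A and 493 in shMettl14 B, and its log2 fold change was -0.75 (SE 0.38, unadjusted p = 0.10 and adjusted p = 1.0 in edgeR). The A libraries were alike and the whole difference lay in letter B, where the ratio was -1.49. The fold change was -0.34 without shCTR B and -0.42 without shMettl14 B. *Rps12* spans chr10:23785183-23787275 on the minus strand of GRCm38, and 23 pseudogenes carry its name.

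*Rps26* had 799, 1909, 754 and 989 CPM in shCTR A, shCTR B, shMettl14 A and shMettl14 B. Its log2 fold change of -0.64 (SE 0.45) came from shCTR B, and without that library it was 0.12.

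*Rps10*, one of the 40S proteins that are ubiquitinated when ribosomes collide, had 628 and 676 CPM in shCTR and 518 and 458 in shMettl14. The log2 fold change was -0.42 (SE 0.19), with ratios of -0.28 and -0.56. *Rps2*, which lies near the mRNA entry site, had 1428 and 1125 CPM in shCTR against 1061 and 899 in shMettl14, with no overlap. *Rpsa*, also known as the precursor of the laminin receptor, had 1419 and 1230 against 1172 and 1027 CPM, and a log2 fold change of -0.27 (SE 0.20). *Rps6*, the substrate of the S6 kinases downstream of mTOR, had 680 and 892 CPM against 600 and 624, with a log2 fold change of -0.36 (SE 0.22). None of these 4 genes had an unadjusted p under 0.05.

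At the other end, *Rps14* and *Rps19*, both known from inherited or acquired anemias with a defective small subunit, were low in 1 library. *Rps14* had 569 CPM in shCTR A, 562 in shMettl14 A and 498 in shMettl14 B, and 195 in shCTR B. *Rps19* had 525, 501 and 344 CPM in those libraries and 150 in shCTR B. Their log2 fold changes of 0.47 (SE 0.52) and 0.33 (SE 0.61) became -0.11 and -0.32 without shCTR B. *Rps27a*, which is made as a fusion with ubiquitin, had 438 and 374 CPM in shCTR and 549 and 407 in shMettl14, and its 2 groups overlapped.

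Among the 60S genes, *Rpl38*, studied for its part in the translation of Hox mRNAs, had 237, 280 and 241 CPM in shCTR A, shCTR B and shMettl14 A and 153 in shMettl14 B. *Rpl4*, whose protein lines the exit tunnel, had 1295 and 1493 CPM against 1096 and 1159, and a log2 fold change of -0.31 (SE 0.19).

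*Rpl23a*, which sits at the exit of the tunnel, followed the pattern of *Rps14* and *Rps19*. It had 508 CPM in shCTR A, 477 in shMettl14 A, 366 in shMettl14 B and 152 in shCTR B, and its log2 fold change of 0.35 (SE 0.58) became -0.27 without shCTR B. For this gene 59.7% of exon bases overlap a gene on the other strand, and the part of that overlap was not tested.

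*Rplp1*, a stalk gene, and *Rpl13*, *Rps28* and *Rpl13a* followed the letters instead. *Rplp1* had 909 and 843 CPM in shCTR A and shMettl14 A and 441 and 355 in the B libraries. *Rpl13* had 1003 and 838 CPM in the A libraries and 399 and 481 in the B libraries, and *Rps28* had 230 and 227 against 152 and 102. *Rpl13a* went the other way, with 34.3 and 29.9 CPM in the A libraries and 59.2 and 48.5 in the B libraries. Each of these genes had a difference between letters that was larger than the difference between hairpins. The third stalk gene, *Rplp2*, had 414 and 321 CPM in the A libraries and 245 and 238 in the B libraries.

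*Rpl22l1*, *Rps27l* and *Rpl7l1* are paralogs of another ribosomal protein gene, and their levels were set against that gene per kilobase of transcript. *Rpl22l1*, the paralog of *Rpl22*, had the highest fold change of the group. It had 2581 and 1289 counts in shCTR A and B and 3343 and 3938 in shMettl14 A and B, or 22.7, 11.9, 28.2 and 30.3 CPM. The log2 fold change was 0.75 (SE 0.36, unadjusted p = 0.088 and adjusted p = 1.0 in edgeR), with ratios of 0.31 in letter A and 1.34 in letter B. It was 1.30 without shCTR A and 0.36 without shCTR B. *Rpl22* had 297, 369, 305 and 278 CPM. Per kilobase, *Rpl22l1* stood at 28.4 and 12.0% of *Rpl22* in shCTR A and B and at 34.2 and 40.5% in shMettl14 A and B, so that both shMettl14 libraries were above both shCTR libraries.

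*Rps27l*, which is known as a p53 target, had 174, 199, 213 and 121 CPM, with a ratio of 0.29 in letter A and -0.72 in letter B. Its parent gene *Rps27* had 234, 135, 302 and 166 CPM and was higher in shMettl14 in both letters (0.37 and 0.30), while the difference between letters was larger. Per kilobase, *Rps27l* stood at 51.6, 102, 48.8 and 50.6% of *Rps27*, with shCTR B alone near 100%. *Rpl7l1* stood at 5.36, 3.59, 4.88 and 5.04% of *Rpl7*, which had 791, 840, 780 and 773 CPM.

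A few cytosolic ribosomal proteins have symbols that the selection did not take. *Rps3a1*, a 40S protein, had 412, 681, 390 and 711 CPM in shCTR A, shCTR B, shMettl14 A and shMettl14 B, so it followed the letters. *Fau*, a ubiquitin-like fusion with a 40S protein, had 386 and 336 CPM against 317 and 254, and *Rack1*, a signalling scaffold on the 40S subunit, had 905 and 763 against 757 and 617. *Rpl36al*, a 60S protein, was at 229 CPM in shCTR B and between 104 and 115 in the other 3 libraries. None of these 4 had an unadjusted p under 0.05.

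Genes of related function were described in the same way. Of 77 mitochondrial ribosomal protein genes 76 were tested, with a median log2 fold change of -0.23, 60 negative and 16 positive values, and 2 with an unadjusted p under 0.05 (2.63%, against 1.67% of all genes tested), both lower in shMettl14. One of them was *Mrps23*, with a log2 fold change of -0.55 (SE 0.19). In letter A 73 of the 76 had a negative ratio and in letter B 51, with 49 negative in both, where the cytosolic genes had 55, 46 and 29 of 78. Of the 8670 genes with at least 1000 counts in each library, 57.6% had a negative ratio in letter A, 54.5% in letter B and 36.1% in both. *Mrpl34* had the lowest value (-0.78, SE 0.31) and *Mrps11* the highest (0.38, SE 0.43).

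A list of 28 genes held 22 translation initiation and elongation factors or *Pabpc1* and 6 others such as *Tpt1* and *Npm1*. Its median was -0.26, with 24 negative and 4 positive values. In it 0 genes had an unadjusted p under 0.05, against 1.67% of all genes tested. *Eif3d* had the lowest value (-0.47, SE 0.20), with ratios of -0.60 and -0.36. *Eef1a1*, which delivers tRNA to the ribosome, was more abundant than any ribosomal protein gene, at 7133, 6921, 6302 and 7894 CPM, and its groups overlapped. The 48 ribosome assembly factors tested of 51 listed had a median of -0.10, with 35 negative and 13 positive values. Of these 1 had an unadjusted p under 0.05 (2.08%, against 1.67% of all genes tested). It was *Sbds*, which helps release Eif6 from the new 60S subunit (-0.56, SE 0.20). The 24 genes of the mTOR and MYC pathways had a median of -0.03, with 13 negative and 11 positive values. In that list 0 had an unadjusted p under 0.05, against the same 1.67%. *Larp4b* had the lowest value (-0.52, SE 0.25) and *Rictor* the highest (0.50, SE 0.28). For comparison with the signs in the 4 lists, 5016 of the 8670 genes with at least 1000 counts in each library had negative log2 fold changes. In none of the 4 lists did a gene have an adjusted p under 0.05 in edgeR's quasi-likelihood test.

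**Figure D4:**
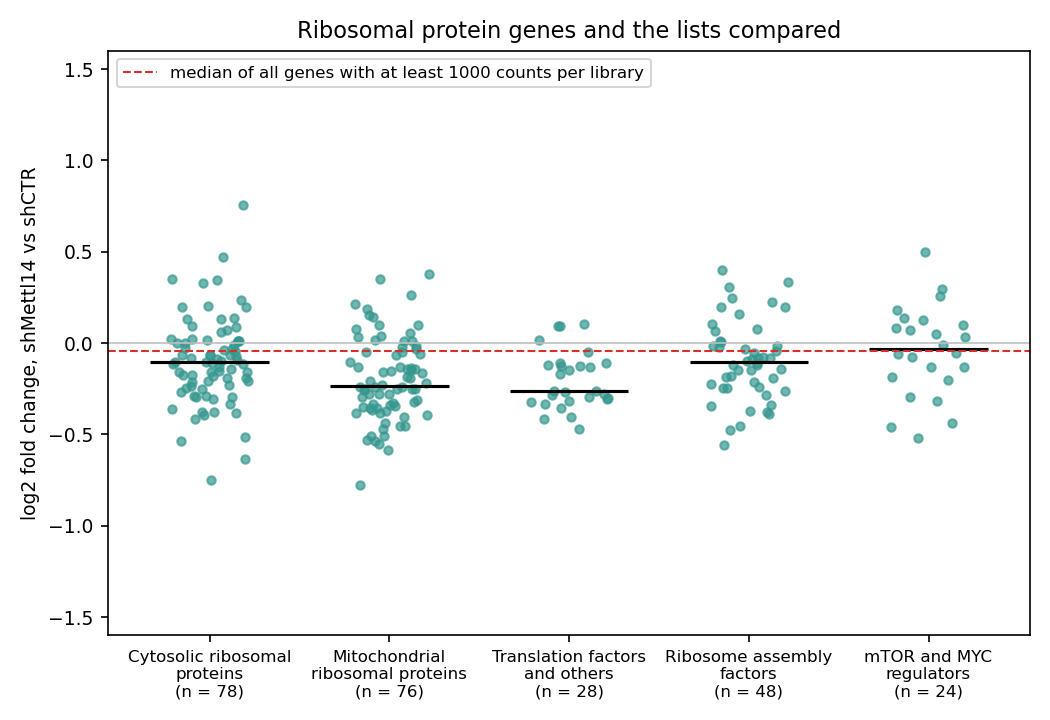
Log2 fold change of shMettl14 against shCTR (y axis), 1 point per gene, for the cytosolic ribosomal protein genes and the 4 lists set beside them. Black lines are list medians, from -0.26 for the list of translation factors and others to -0.03 for the mTOR and MYC regulators, and the dashed line is the median of -0.04 over 8670 genes.

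Base composition and expression level moved with the values of letter A. Across the 78 genes the letter A ratio had a Pearson's r of -0.41 with the GC content of the transcript (rho -0.38), and the letter B ratio had -0.06 (rho -0.03). Over all 8670 genes with at least 1000 counts in each library, of which 97.1% had a GC value, the corresponding r were -0.30 and -0.03. The 39 genes above the median GC content had a median ratio of -0.23 in letter A, with 32 negative, and the 39 at or below it had -0.02, with 23 negative. With the level of the gene the letter A ratio had an r of -0.40 over the 78 genes (rho -0.40) and -0.08 over the 8670. With the log2 length of the transcript it had -0.22 over the 78 (rho -0.30) and 0.52 over the 8670. The part of GC content, level and length in the ratios was not tested.

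**Figure D5:**
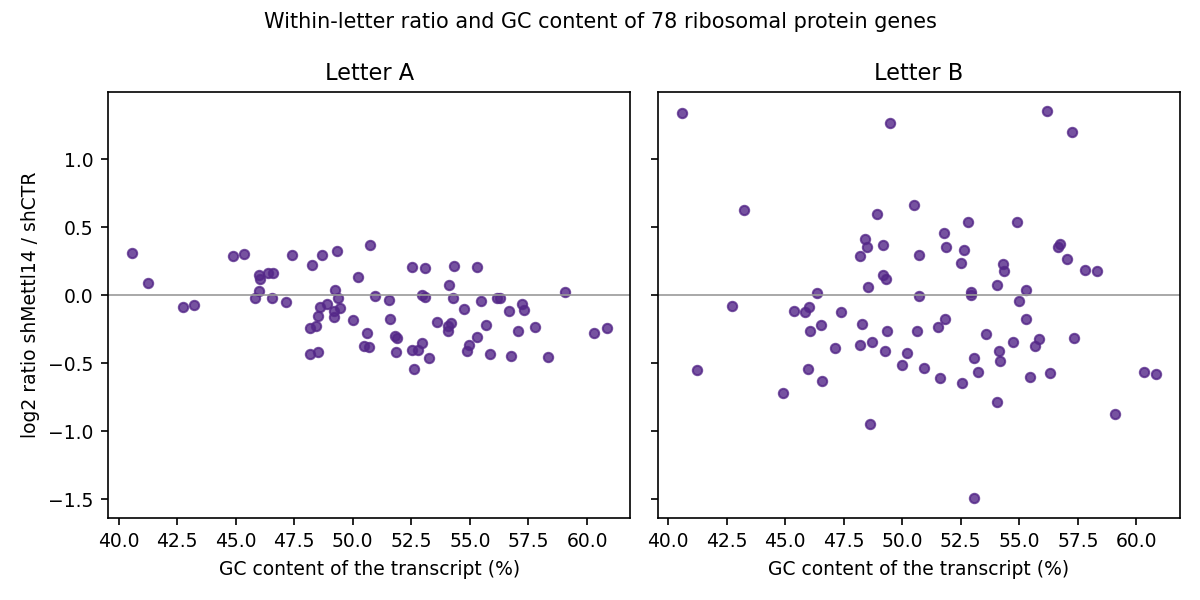
Log2 ratio of shMettl14 to shCTR (y axis) against the GC content of the transcript in percent (x axis) for the 78 ribosomal protein genes, letter A on the left and letter B on the right. In letter A the 39 genes of higher GC content have a median ratio of -0.23 and the other 39 a median of -0.02, and in letter B the points scatter widely at every GC content.

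Ribosomal protein genes have many processed copies in the genome, and how reads on more than 1 place were counted is not given in the sources used here. In the table, 275 genes carry a -ps symbol of a ribosomal protein pseudogene, and 59 of the 78 genes have at least 1. Together those -ps genes took between 0.0095 and 0.0150% of counts. This total leaves out *Rps3a2* and *Rps3a3*, which the annotation also lists as processed pseudogenes. In shCTR A these had 2854 and 12027 counts, beside 17407 for all -ps genes. Only 5 of the 78 genes had such a pseudogene with 1000 or more counts in a library. *Rpl34-ps1* had 2966 and 3295 counts in shCTR A and shMettl14 A and 131 and 121 in the B libraries, while *Rpl34* itself had 208, 208, 242 and 236 CPM. *Rps3a3* had 12027 and 10500 counts in the A libraries and 36 and 81 in the B libraries, where *Rps3a1* was high. More than 5% of exon bases overlapped another gene for 26 of the 78. The values of genes with near-identical copies are therefore uncertain, and the part of the copies in the differences between letters was not tested.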

How the data were processed

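Poly-A mRNA-seq counts of 4 libraries (2 shCTR, 2 shMettl14) were analysed. Per the study's methods, the authors mapped stranded paired-end reads to mm10 (GRCm38) with STAR and deposited raw counts per gene from featureCounts. Tool versions, the strand setting and the treatment of reads with several places are not given in the sources used here. The ribosomal protein genes and the gene lists were chosen with earlier results of these data known.

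All genes kept by filterByExpr (18916) were fitted together with edgeR 4.0.16 in R 4.3.3 (TMM factors, robust quasi-likelihood fit, group only), and p-values were adjusted over all of them by the Benjamini-Hochberg method. Standard errors were obtained from each log2 fold change and its F statistic (absolute value over root F). CPM values use TMM-scaled totals, and within-letter ratios add a prior count of 2. Genes were named by rule: the 6 highest and the 6 lowest fold changes, the 6 largest among genes whose groups did not overlap, the 5 highest levels, paralogs with their parents, the 3 nearest above the minimum, unadjusted p under 0.05, the 5 largest differences between letters, and the 2 highest and 2 lowest of each list. *Rpl5*, *Rpl11*, *Rpl28*, *Rpl34*, *Rplp2*, *Rps6*, *Mrps23*, *Eef1a1* and the pseudogenes were named after their values were seen. Some of the genes that the rule names are not reported here. Transcript length, GC content and overlaps came from GENCODE M21, and start-site sequences from RefSeq (GRCm38.p6). The scripts were tested on simulated counts.

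Alternatives were RLE factors, library totals, TMM without ribosomal protein genes, an unfiltered fit, a minimum of 10 counts in each library, DESeq2 1.42.0, a replicate block, each library left out, other count minimums, and a prior count of 0.5. Leaving out genes with abundant pseudogenes was added after seeing the data.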

Additional observations from a re-analysis of the deposited data

How the results depend on the processing

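In the main test and each alternative fit, 0 of the 78 ribosomal protein genes had an adjusted p under 0.05. The number with an unadjusted p under 0.05 was 1 in edgeR, 0 with library totals (1.78% of all genes) and with DESeq2 (1.52%), 2 without the filter (1.62%), and 0 to 11 with 1 library left out. The 11 came without shCTR A (8 higher and 3 lower), or 14.1% against 6.90% of all genes. With the replicate block 8 passed (1 higher and 7 lower), or 10.3% of the group against 10.3% of all genes, *Rps2*, *Rps10* and *Rps26* among them, and the lowest adjusted p was 0.29, for *Rpl22l1*. The letters gave 2 pairs, and no source ties a letter to 1 culture. The deviations of same-lettered libraries correlated at 0.58 over all genes and at 0.25 over the 78. The block also turned *Rpl13* to 0.0050 and *Rps3a1* to -0.0087 on the log2 scale and brought *Mettl14* past the threshold (-2.08), as DESeq2 did (-2.09). Library totals turned *Rpl13* (0.0096) and *Rpl7* (0.040). Without the 10 most abundant genes of shCTR B the share of counts in that library was 4.29%. The cause of these changes was not tested.

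With 1 library left out, where the lone library is assumed to vary like the others, the log2 fold change turned sign for some named genes. It ran from -1.13 to 0.12 for *Rps26*, from -0.64 to 0.19 for *Rpl13a*, from -0.90 to 0.25 for *Rps28*, from -0.51 to 0.18 for *Rplp0*, from -0.93 to 0.44 for *Rplp1* and from -0.62 to 0.19 for *Rps27l*. It ran from -0.61 to 0.73 for *Rpl13*, from -0.14 to 0.36 for *Rpl7l1*, from -0.32 to 1.502 for *Rps19*, from -0.15 to 0.80 for *Rps27*, from -0.27 to 1.48 for *Rpl23a* and from -0.11 to 1.45 for *Rps14*. Outside the 78 genes it ran from -0.48 to 0.41 for *Rps3a1*, from -0.092 to 1.09 for *Mrps11* and from -0.12 to 0.31 for *Eif3e*. *Rps12* (-1.17 to -0.34), *Rps10* (-0.51 to -0.33) and *Rpl22l1* (0.36 to 1.30) kept their direction, and the size moved by over 1.5 times for *Rps12* and *Rpl22l1*. A count minimum of 100 or 10000, the 5 added symbols and the removal of genes with abundant pseudogenes (chosen after seeing the data) gave medians of -0.10 in each case. The number of genes with the same direction in both letters was 35, and between 31 and 38 over the scalings, count minimums and gene sets tried.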
